A study of Mus musculus with 6 samples.

Results

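Mitochondrial fatty acid oxidation and the carnitine shuttle were followed through 34 genes, found as 34 of the 45777 genes in the table of liver RNA. These genes were listed by gene symbol, with earlier results of these data known. They encode the carnitine transporter and the carnitine shuttle, malonyl-CoA decarboxylase, the medium-chain acyl-CoA synthetases of the matrix, the acyl-CoA dehydrogenases, the electron transfer flavoproteins (ETF) with their dehydrogenase, the enzymes of the later steps of the β-oxidation spiral, auxiliary enzymes for unsaturated chains and the propionyl-CoA route. RNA came from the whole livers of 3 WT mice, which were *Pak4* flox/flox, and of 3 LKO mice, which carried Alb-Cre in addition to *Pak4* flox/flox, all C57BL/6 males 8 weeks old and fasted for 24 h, with 1 library per mouse. Both genotypes carry the floxed *Pak4* allele, and the LKO mice alone carry Cre, which the albumin promoter drives in hepatocytes, so that effects of Cre and of the loss of *Pak4* cannot be told apart. The comparison asks how the genes of this route differed between the fasted livers of the 2 genotypes. Since whole liver was sequenced, fewer cells of a type and less RNA per cell cannot be told apart.

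In fasting, fatty acids from adipose tissue reach the liver, where long chains are coupled to carnitine to cross the inner mitochondrial membrane and are then shortened step by step by a cycle of dehydrogenation, hydration, a second dehydrogenation and thiolysis. Each turn yields acetyl-CoA, the substrate of ketogenesis, and passes electrons through flavoproteins and NADH to the respiratory chain. Entry is held back by malonyl-CoA, which inhibits carnitine palmitoyltransferase 1, and many genes of the route are targets of the nuclear receptor PPARα. Odd-numbered chains and several amino acids end in propionyl-CoA, which is carried on to succinyl-CoA.

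*Pak4* had TMM-scaled CPM (counts brought to 1 library size) of 3.59, 3.21 and 4.1 CPM in WT and 1.93, 1.49 and 3.22 CPM in LKO mice. LKO mouse 3 lay within the WT range, and the log2 fold change was −0.71 (adjusted p = 0.101). It was −1.08 without LKO mouse 3 (adjusted p = 0.0152), −0.81 to −0.49 and not called without any other mouse, and −1.54 with total counts in place of TMM (adjusted p = 0.0056). These values are over the whole gene, and the deleted part alone was not analysed here, so the genotypes are those of the labels. Total counts were 45934632 to 59576437 per mouse. The 10 genes with the most counts took 16.2% to 17.3% of the counts of WT mice and 30.6% to 36.3% of those of LKO mice, and 7SL and 7SK RNA took 5.05% to 5.84% and 13.8% to 18.2%. TMM factors were 1.28 to 1.43 in WT and 0.639 to 0.816 in LKO mice. Of 6 hepatocyte markers 3 were higher and 1 was lower in LKO mice, with a summed level of 30074 to 34396 CPM in WT and 83893 to 103393 CPM in LKO mice. The lists for Kupffer, endothelial and stellate cells each had 3 of 5 genes higher and none lower, and their summed levels were above the WT range in every LKO mouse. The lists for cholangiocytes (4 of 5 genes tested) and lymphocytes had none higher and 1 and 2 lower, with summed levels of 32.9 to 50.2 and 2.63 to 4.69 CPM in WT and 13.7 to 30.2 and 1.20 to 2.61 CPM in LKO mice. The part of these differences in the values given here was not tested.

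All 34 genes passed the filter on low counts, with at least 21 counts in every mouse. Relative to TMM-scaled libraries, 13 of them were higher in LKO mice, 4 were lower, and 17 were not called (edgeR's quasi-likelihood test, Benjamini-Hochberg adjusted p under 0.05 over 18636 genes). Of all genes tested, 40.1% were called, 19.6% higher and 20.5% lower, against 50.0%, 38.2% and 11.8% of the 34 genes. The median log2 fold change was 0.24 for the 34 genes and −0.04 for all genes tested. The largest rises were those of *Hsd17b10*, *Mcee*, *Etfdh*, *Eci2*, *Acsm3* and *Decr1*, with log2 fold changes of 1.15 to 1.70, and the genes that fell were *Mmab*, *Slc25a20*, *Acsm1* and *Mmaa*. The values of the genotypes did not overlap for 17 of the 34 genes, 11 above and 6 below WT, against 54.0% of all genes tested, 26.1% above and 27.9% below. These rises are relative to the other genes of each library: with total counts in place of TMM, 2 genes (*Hsd17b10* and *Mcee*) were called higher and 18 lower (57.6% of all genes tested were called, 6.26% higher and 51.4% lower). On the log2(TPM + 1) scale 0 were called higher by limma and 27 lower, where 73.9% of all genes tested were called, 2.43% higher and 71.5% lower. *Slc25a20*, *Acsm1* and *Mmab* were called lower under the scaling used here and under each of 19 alternatives.

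**Figure D1:**
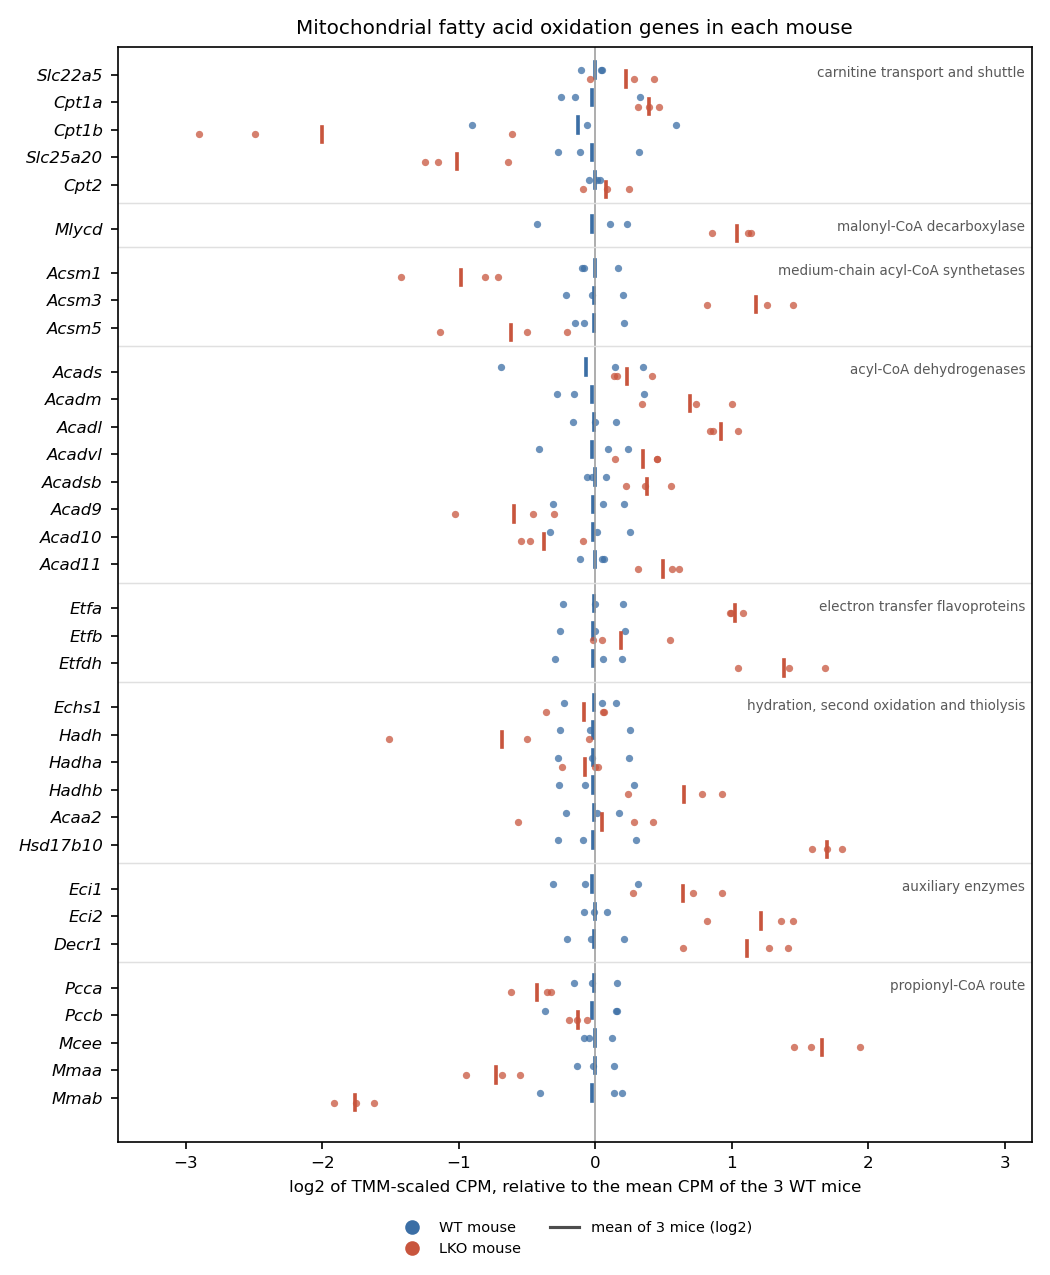
TMM-scaled CPM of the 34 genes in each of 3 WT and 3 LKO mice, drawn as the log2 difference from the mean CPM of the WT mice (x axis), with genes on the y axis by role, points for mice and bars for the mean of the log2 values of 3 mice. The means of *Hsd17b10*, *Mcee* and *Etfdh* lie farthest to the right in LKO mice, *Mmab* and *Slc25a20* lie to the left in each LKO mouse, and *Cpt2*, *Echs1* and *Hadha* lie around the WT values.

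The levels differed widely between the genes. In TPM, which corrects for gene length, the highest mean in WT mice was that of *Acaa2*, 834 ± 91.7 (SD, n = 3), and the lowest that of *Cpt1b*, 3.09 ± 1.52. *Acadvl*, *Acadm* and *Acad11* followed *Acaa2* with 251 ± 47.2, 240 ± 57.3 and 230 ± 5.78 TPM and did not differ beyond these SDs. *Mmab* and *Mmaa*, at 5.42 ± 0.884 and 5.59 ± 0.191 TPM, stood just above *Cpt1b*. In LKO mice *Acaa2* was again the highest gene, at 304 ± 80.7 TPM, and *Hsd17b10* stood next to it with 181 ± 20.3 TPM. *Hsd17b10* and *Mcee* were the 2 genes with a higher mean TPM in LKO than in WT mice, 181 ± 20.3 against 162 ± 31.8 and 55.1 ± 1.19 against 50.6 ± 2.77 TPM (SD, n = 3).

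Of the 5 genes of carnitine transport and the shuttle, 1 fell, 4 were not called and none rose. Thus 20.0% were called, against 40.1% of all genes tested. *Slc25a20* encodes the carnitine-acylcarnitine translocase of the inner membrane, the carrier between both palmitoyltransferases. It lies on chromosome 9 from 108662136 to 108684642 (GRCm38.p6, the assembly that mm10 represents) and had 139, 92.1 and 103 CPM in WT and 71.5, 49.9 and 46.9 CPM in LKO mice. No LKO mouse reached the WT range, and the log2 fold change was −0.99 ± 0.22 (here and below LKO over WT ± standard error, on the TMM scale; adjusted p = 0.00874). *Cpt1a*, the liver form of carnitine palmitoyltransferase 1 and the rate-limiting enzyme of the route, had 168, 180 and 251 CPM in WT and 263, 249 and 276 CPM in LKO mice. LKO mouse 2 was below WT mouse 3, and the log2 fold change of 0.39 ± 0.19 did not pass (adjusted p = 0.131). It was 0.54 with gene length offsets (adjusted p = 0.0479), and *Cpt1a* was called higher there alone. The value turned to −0.46 with total counts (not called, adjusted p = 0.0771). By limma on log2(TPM + 1) *Cpt1a* was called lower, at −1.11 (adjusted p = 0.00216). *Cpt2*, the palmitoyltransferase on the matrix side, had 72.5, 68.9 and 71.4 CPM in WT and 84.2, 75.3 and 66.6 CPM in LKO mice, with overlapping genotypes and a log2 fold change of 0.09 ± 0.14. *Slc22a5*, the carnitine transporter of the plasma membrane, had 22.1, 24.5 and 24.6 CPM in WT and 28.9, 32.0 and 23.2 CPM in LKO mice. LKO mouse 3 fell among the WT mice, and the log2 fold change was 0.24 ± 0.16 (adjusted p = 0.262). The small positive values of *Cpt2* and *Slc22a5* turned negative with total counts and in TPM, where both genes were called lower. With total counts the adjusted p was 0.00542 for *Cpt2* and 0.0109 for *Slc22a5*.

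*Cpt1b*, the muscle form of carnitine palmitoyltransferase 1, had only 21 to 507 counts per mouse and 6.80, 4.33 and 2.42 CPM in WT and 2.95, 0.602 and 0.80 CPM in LKO mice. LKO mouse 1 lay among the WT mice and the other two LKO mice lay below them. The log2 fold change was −1.63 ± 0.61 (adjusted p = 0.0635), and −2.67 without LKO mouse 1 (adjusted p = 0.0054), but −1.18 without WT mouse 1 (adjusted p = 0.208) and between −1.93 and −1.27 without any other mouse, not called in these. The gene was also called lower with exactTest of edgeR (adjusted p = 0.0245), DESeq2 (adjusted p = 0.0106), total counts (adjusted p = 0.0131) and the TPM scales. Its exons are shared over 81.4% of their length with those of the annotated gene *Gm44502* on the same strand, so its counts are uncertain. Of 6 skeletal and heart muscle markers, *Acta1*, *Myh6*, *Actn2* and *Myh7* had no count in any mouse and the highest count of the list in a mouse was 2. Of 5 adipocyte markers, none of which passed the filter, *Plin1* and *Lep* had no count and the highest count in a mouse was 43. The summed level of the adipocyte list was 0.245 to 0.577 CPM in WT and 0 to 0.130 CPM in LKO mice, below WT in every LKO mouse. The part of other tissues in the *Cpt1b* values was not tested.

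The promoters of these genes, 250 bases before to 50 bases after the RefSeq start, were searched on both strands for the DR1, the element bound by PPARα with its partner RXR, as AGGTCANAGGTCA with at most 2 mismatches. A promoter was at hand for 30 of the 34 genes. The motif was found in 4 of these genes (13.3%), *Etfa*, *Slc25a20*, *Echs1* and *Pcca*, and in 4.40% of 27025 genes with a promoter, a description and no proof of a site. *Etfa* was higher, *Slc25a20* lower and *Echs1* and *Pcca* not called. For *Pcca* the match lies in a second RefSeq window within the gene (chr14:122534078-122534377). The window at the start of the gene (chr14:122484115-122484414) has no match. The promoter of *Slc25a20* is shown for its match, in capitals, which begins 6 bases after the start (chr9:108661886-108662185, GRCm38.p6, plus strand).
Slc25a20: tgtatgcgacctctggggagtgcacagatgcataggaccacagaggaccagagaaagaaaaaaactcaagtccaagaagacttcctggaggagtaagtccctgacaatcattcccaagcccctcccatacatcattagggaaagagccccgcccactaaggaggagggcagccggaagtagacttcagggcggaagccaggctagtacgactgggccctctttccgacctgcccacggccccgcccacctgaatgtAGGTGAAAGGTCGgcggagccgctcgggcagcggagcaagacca

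*Mlycd*, malonyl-CoA decarboxylase, removes the inhibitor of carnitine palmitoyltransferase 1. It had 29.3, 20.2 and 31.8 CPM in WT and 49.0, 58.8 and 59.8 CPM in LKO mice. All LKO mice were above all WT mice, and the gene rose by 1.04 ± 0.19 on the log2 scale (adjusted p = 0.00372). With total counts the value was 0.18 and on the log2(TPM + 1) scale it was −0.46, not called in either.

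Among the 3 medium-chain acyl-CoA synthetases of the matrix, which activate medium-chain and aromatic acids, 1 rose and 1 fell. These calls are 66.7% of the 3 genes, against 40.1% of all genes tested. *Acsm3* had 169, 127 and 145 CPM in WT and 352, 401 and 259 CPM in LKO mice. *Acsm1* had 182, 180 and 216 CPM in WT and 110, 118 and 71.7 CPM in LKO mice, and *Acsm5* had 78.2, 81.9 and 100 CPM in WT and 61.3, 75.1 and 39.4 CPM in LKO mice. The genotypes did not overlap for any of the 3 genes, *Acsm3* being above WT and *Acsm1* and *Acsm5* below. Log2 fold changes were 1.20 ± 0.21 for *Acsm3* (adjusted p = 0.00272), −0.95 ± 0.21 for *Acsm1* (adjusted p = 0.00790) and −0.57 ± 0.24 for *Acsm5* (adjusted p = 0.0881). *Acsm5* was called lower without LKO mouse 2, at −0.79 (adjusted p = 0.0416), and was not called without any other mouse, at −0.35 without LKO mouse 3 (adjusted p = 0.148) and −0.46 without WT mouse 3 (adjusted p = 0.226). These 3 genes lie in 1 stretch of chromosome 7, from 119526131 to 119784896. The value of *Acsm3* was 0.32 with total counts and −0.36 on the log2(TPM + 1) scale, not called in either. Of its exon bases 39.7% overlap *Eri2* on the opposite strand, which could share reads if strand was not used in counting. *Eri2* had at most 644 counts in a mouse, and *Acsm3* had 8277 to 15476.

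The acyl-CoA dehydrogenases take the first step of each turn, sorted by chain length. Of 8 genes, 3 rose, 5 were not called and none fell on the TMM scale (37.5% called, against 40.1% of all genes tested). In log2(TPM + 1), by contrast, all 8 had negative values and were called lower by limma. *Acadl*, the long-chain dehydrogenase, had 59.2, 47.7 and 53.3 CPM in WT and 95.9, 110 and 97.3 CPM in LKO mice, without overlap, and rose by 0.92 ± 0.15 (adjusted p = 0.00184). *Acadm*, the medium-chain dehydrogenase, had 322, 207 and 226 CPM in WT and 505, 420 and 318 CPM in LKO mice. LKO mouse 3 was just below WT mouse 1, and the rise of 0.72 ± 0.24 (adjusted p = 0.0422) was not called without WT mouse 2 (0.57, adjusted p = 0.154), WT mouse 3 (0.63, adjusted p = 0.154), LKO mouse 1 (0.55, adjusted p = 0.121) or LKO mouse 2 (0.71, adjusted p = 0.0939). *Acad11*, a less studied member of the family, had 403, 361 and 408 CPM in WT and 577, 597 and 484 CPM in LKO mice. All LKO mice were above WT, with a log2 fold change of 0.50 ± 0.17 (adjusted p = 0.0444). Without WT mouse 1, WT mouse 2, WT mouse 3, LKO mouse 1 or LKO mouse 2, its adjusted p lay between 0.0961 and 0.140. With total counts *Acadm* was at −0.14, *Acad11* at −0.37 and *Acadl* at 0.05, none of them called. In log2(TPM + 1) the 3 genes were at −0.82, −1.04 and −0.61 (limma, adjusted p = 0.0175, 0.000434 and 0.00492).

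Of the dehydrogenases that were not called, *Acadvl*, which takes the longest chains, had 332, 211 and 300 CPM in WT and 385, 384 and 311 CPM in LKO mice and a log2 fold change of 0.36 ± 0.21. *Acads*, the short-chain dehydrogenase, had 47.8, 23.2 and 41.6 CPM in WT and 50.0, 41.3 and 41.9 CPM in LKO mice, and its value of 0.24 ± 0.25 turned to −0.03 without WT mouse 2, the lowest mouse. For both genes the genotypes overlapped. *Acadsb*, which acts on short branched chains from isoleucine, had 136, 133 and 146 CPM in WT and 178, 204 and 161 CPM in LKO mice. Every LKO mouse was above every WT mouse, but the log2 fold change of 0.39 ± 0.15 missed the threshold (adjusted p = 0.0717) and passed it without LKO mouse 3 (0.46, adjusted p = 0.0396) and with gene length offsets (0.53, adjusted p = 0.0269). Without any other mouse it was 0.29 to 0.42 and not called. With total counts and in TPM it was negative, and *Acadsb* was called lower there. *Acad9*, better known as an assembly factor of complex I, had 40.2, 28.0 and 36.1 CPM in WT and 28.2, 25.3 and 17.1 CPM in LKO mice. LKO mouse 1 alone reached the WT range, and the log2 fold change of −0.56 ± 0.22 (adjusted p = 0.0721) became −0.72 without it (adjusted p = 0.048), −0.38 without LKO mouse 3 (adjusted p = 0.138) and −0.44 without WT mouse 1 (adjusted p = 0.224), with no call when any mouse but LKO mouse 1 was left out. *Acad10* had 20.9, 13.9 and 17.7 CPM in WT and 16.4, 12.0 and 12.5 CPM in LKO mice, an overlap and a log2 fold change of −0.36 ± 0.20 (adjusted p = 0.192). *Acadvl* shares 42.9% of its exon bases with *Dvl2* on the opposite strand, which had at most 119 counts in a mouse.

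Electrons from acyl-CoA dehydrogenases pass through ETF, a dimer of an α and a β subunit, to ETF dehydrogenase in the inner membrane. *Etfdh* had 145, 103 and 131 CPM in WT and 407, 339 and 262 CPM in LKO mice. *Etfa*, on chromosome 9 from 55454436 to 55512243, had 113, 95.9 and 130 CPM in WT and 225, 240 and 224 CPM in LKO mice. Both genes were above WT in every LKO mouse and rose, by 1.41 ± 0.22 (adjusted p = 0.00154) and 1.02 ± 0.16 (adjusted p = 0.00180). *Etfb*, for the β subunit, had 102, 72.7 and 87.1 CPM in WT and 127, 90.1 and 86.0 CPM in LKO mice, and LKO mice 2 and 3 lay within the WT range. Its log2 fold change was 0.21 ± 0.20 (adjusted p = 0.427) and turned to −0.18 with gene length offsets (not called). *Etfb* was called lower with total counts, at −0.63 (adjusted p = 0.0483), and by limma on log2(TPM + 1), at −1.33 (adjusted p = 0.00195). The annotated gene *Gm45233* covers 53.0% of its exon bases. With total counts *Etfdh* and *Etfa* were at 0.56 and 0.16 and were not called. By limma on log2(TPM + 1) *Etfdh* was at −0.14 and not called, and *Etfa* was called lower, at −0.51 (adjusted p = 0.0169).

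2 promoters of this group are shown, *Etfa* for its DR1 match (capitals, on the opposite strand, beginning 77 bases before the start) and *Etfdh* for the palindrome GCGCATGCGC bound by NRF1, a regulator of mitochondrial genes (capitals, beginning 128 bases before the start). The palindrome was found in *Etfdh* and *Acad10*, 6.67% of the 30 genes, and in 1.07% of 27025 genes. The windows are chr9:55512194-55512493 and chr3:79628718-79629017, both on the minus strand of GRCm38.p6. The element of the estrogen-related receptors, TCAAGGTCA, and the cAMP response element, TGACGTCA, were found in none of these 30 genes and in 0.466% and 2.03% of the 27025 genes.
Etfa: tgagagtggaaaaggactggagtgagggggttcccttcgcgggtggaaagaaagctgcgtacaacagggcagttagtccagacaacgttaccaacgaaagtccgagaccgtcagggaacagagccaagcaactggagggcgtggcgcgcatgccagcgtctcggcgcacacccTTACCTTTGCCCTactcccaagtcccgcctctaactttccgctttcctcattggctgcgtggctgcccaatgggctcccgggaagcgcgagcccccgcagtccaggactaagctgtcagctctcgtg
Etfdh: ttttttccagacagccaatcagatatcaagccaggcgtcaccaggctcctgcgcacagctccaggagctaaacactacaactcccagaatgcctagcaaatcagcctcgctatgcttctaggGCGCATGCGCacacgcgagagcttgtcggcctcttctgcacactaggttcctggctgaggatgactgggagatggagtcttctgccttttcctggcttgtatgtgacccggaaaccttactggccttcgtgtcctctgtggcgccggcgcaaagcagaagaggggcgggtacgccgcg

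Of the 6 genes for hydration, the second oxidation and thiolysis, 2 rose and 4 were not called. Thus 33.3% were called, against 40.1% of all genes tested. *Hsd17b10*, on the X chromosome from 152001896 to 152004442, encodes a hydroxyacyl-CoA dehydrogenase of isoleucine and fatty acid breakdown that is also a subunit of mitochondrial RNase P. It had 92.6, 62.4 and 70.8 CPM in WT and 245, 264 and 226 CPM in LKO mice. All LKO mice lay far above the WT mice, and the log2 fold change of 1.70 ± 0.19 (adjusted p = 0.000438) was the highest of the 34 genes; it was 1.30 with gene length offsets, 0.83 with total counts (both called) and 0.17 in log2(TPM + 1) (not called). *Hadh*, the dehydrogenase of medium and short hydroxyacyl chains, had 190, 133 and 155 CPM in WT and 155, 113 and 55.8 CPM in LKO mice. LKO mouse 3 was far below and LKO mouse 1 within the WT range, with a log2 fold change of −0.57 ± 0.33 (adjusted p = 0.211). *Echs1*, the short-chain hydratase, had 150, 115 and 139 CPM in WT and 141, 140 and 105 CPM in LKO mice. *Acaa2*, the thiolase that releases acetyl-CoA, had 720, 550 and 644 CPM in WT and 778, 855 and 431 CPM in LKO mice. Both overlapped between the genotypes, with log2 fold changes of −0.07 ± 0.18 and 0.11 ± 0.27, and for *Acaa2* LKO mouse 3 was below all WT mice while LKO mice 1 and 2 were above them. *Acaa2* turned to −0.08 without LKO mouse 2, −0.01 without WT mouse 2 and −0.77 with total counts (called lower, adjusted p = 0.0257). *Echs1* turned to 0.02 without WT mouse 1 and 0.06 without LKO mouse 3.

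The trifunctional protein, which carries out the later steps on long chains, is built from an α subunit (*Hadha*) and a β subunit with the thiolase (*Hadhb*). *Hadha* had 308, 215 and 256 CPM in WT and 260, 263 and 219 CPM in LKO mice. *Hadhb* had 281, 191 and 218 CPM in WT and 396, 437 and 272 CPM in LKO mice. *Hadha* overlapped throughout, with a log2 fold change of −0.07 ± 0.18 (adjusted p = 0.783) that was 0.08 without WT mouse 1 and 0.01 without LKO mouse 3, whereas for *Hadhb* LKO mouse 3 alone lay within the WT range. *Hadhb* rose by 0.68 ± 0.23 (adjusted p = 0.0451). The call was not made without WT mouse 2 (adjusted p = 0.155), WT mouse 3 (adjusted p = 0.144), LKO mouse 1 (adjusted p = 0.102) or LKO mouse 2 (adjusted p = 0.134). With total counts the value was −0.20 and not called. By limma on log2(TPM + 1) *Hadhb* was called lower, at −0.70 (adjusted p = 0.0173).

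Both subunit genes lie head to head on chromosome 5, with their starts 86 bases apart in the GENCODE annotation. RefSeq, which the promoter windows follow, has the starts farther apart, at 30154980 for *Hadha* and 30155253 for *Hadhb*, and these windows share 228 bases. The window of *Hadhb* (chr5:30155003-30155302, GRCm38.p6, plus strand) is shown because the 2 genes read away from it had different values, with the bases shared with the *Hadha* window in capitals.
Hadhb: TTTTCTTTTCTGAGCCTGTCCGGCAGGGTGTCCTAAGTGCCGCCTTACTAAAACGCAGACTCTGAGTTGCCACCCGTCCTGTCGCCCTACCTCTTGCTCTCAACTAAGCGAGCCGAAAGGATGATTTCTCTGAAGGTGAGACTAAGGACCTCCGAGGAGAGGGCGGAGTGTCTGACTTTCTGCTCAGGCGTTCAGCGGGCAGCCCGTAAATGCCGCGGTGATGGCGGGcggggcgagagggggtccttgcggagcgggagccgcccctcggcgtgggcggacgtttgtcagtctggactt

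All 3 auxiliary enzymes rose on the TMM scale, where 19.6% of all genes tested rose, and had negative values in log2(TPM + 1). *Eci2*, an enoyl-CoA isomerase found in mitochondria and peroxisomes, had 157, 139 and 146 CPM in WT and 379, 403 and 260 CPM in LKO mice. *Decr1*, the dienoyl-CoA reductase for polyunsaturated chains, had 211, 158 and 179 CPM in WT and 442, 488 and 286 CPM in LKO mice. *Eci1*, the main mitochondrial isomerase, had 74.4, 48.2 and 56.7 CPM in WT and 98.4, 114 and 72.5 CPM in LKO mice. *Eci2* and *Decr1* were above WT in every LKO mouse, and for *Eci1* LKO mouse 3 was just below WT mouse 1. Log2 fold changes were 1.24 ± 0.20 for *Eci2* (adjusted p = 0.00188), 1.15 ± 0.23 for *Decr1* (adjusted p = 0.00531) and 0.67 ± 0.22 for *Eci1* (adjusted p = 0.0416). *Eci1* was not called with gene length offsets (0.39, adjusted p = 0.148), nor without WT mouse 2 (adjusted p = 0.149), WT mouse 3 (adjusted p = 0.135), LKO mouse 1 (adjusted p = 0.0877) or LKO mouse 2 (adjusted p = 0.134). With total counts the values were 0.36, 0.27 and −0.21, none of them called. In log2(TPM + 1) they were −0.27, −0.42 and −0.87, where limma called *Eci1* alone lower (adjusted p = 0.00387).

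On the propionyl-CoA route 1 gene rose, 2 fell and 2 were not called. *Mcee*, the methylmalonyl-CoA epimerase, on chromosome 7 from 64392622 to 64412121, had 20.1, 20.7 and 23.2 CPM in WT and 63.7, 81.9 and 58.7 CPM in LKO mice. *Mmab*, on chromosome 5 from 114431034 to 114444073, makes the adenosylcobalamin that methylmalonyl-CoA mutase needs and had 9.12, 6.28 and 9.51 CPM in WT and 2.70, 2.47 and 2.21 CPM in LKO mice. *Mmaa*, a GTPase that loads this cofactor, had 26.1, 31.5 and 28.3 CPM in WT and 19.5, 17.9 and 14.8 CPM in LKO mice. *Mcee* was above and *Mmab* and *Mmaa* were below WT in every LKO mouse. Log2 fold changes were 1.67 ± 0.17 for *Mcee* (adjusted p = 0.000351), −1.76 ± 0.23 for *Mmab* (adjusted p = 0.000745) and −0.72 ± 0.16 for *Mmaa* (adjusted p = 0.00771), and *Mcee* was at 1.20 with gene length offsets, 0.79 with total counts (both called) and 0.12 in log2(TPM + 1) (not called). The carboxylase subunit gene *Pcca* had 49.0, 44.7 and 55.5 CPM in WT and 39.8, 32.4 and 39.0 CPM in LKO mice, below WT in every LKO mouse but just short of the threshold, with a log2 fold change of −0.42 ± 0.15 (adjusted p = 0.0526). Its partner *Pccb* had 68.3, 47.4 and 67.8 CPM in WT and 55.7, 58.8 and 53.5 CPM in LKO mice, an overlap and a log2 fold change of −0.13 ± 0.17.

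In the GENCODE annotation *Mmab* starts 209 bases from *Mvk*, the mevalonate kinase gene of cholesterol synthesis, on the opposite strand, and *Mvk* also fell. It had 5.55, 5.07 and 7.27 CPM in WT and 2.45, 2.24 and 1.60 CPM in LKO mice, without overlap, and a log2 fold change of −1.51 ± 0.25 (adjusted p = 0.00218). *Mcee* starts 339 bases from *Mphosph10* in the same annotation, and *Mphosph10* had a log2 fold change of 1.81 (adjusted p = 0.000373). These neighbors were looked at after the values were known. The window of *Mmab* (chr5:114443978-114444277, GRCm38.p6, minus strand) is shown because both genes read away from it fell, with the 259 bases shared with the *Mvk* window in capitals.
Mmab: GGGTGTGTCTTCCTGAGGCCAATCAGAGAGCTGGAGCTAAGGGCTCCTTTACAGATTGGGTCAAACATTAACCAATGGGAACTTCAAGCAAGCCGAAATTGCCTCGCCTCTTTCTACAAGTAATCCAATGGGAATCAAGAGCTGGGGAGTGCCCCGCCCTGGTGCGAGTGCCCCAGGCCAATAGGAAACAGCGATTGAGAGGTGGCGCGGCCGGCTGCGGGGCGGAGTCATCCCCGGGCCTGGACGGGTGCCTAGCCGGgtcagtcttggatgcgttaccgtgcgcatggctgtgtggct

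Shares within a mouse do not depend on the scaling between mice. Summed over the 34 genes, TPM were 3934 to 4850 in WT and 1911 to 2507 in LKO mice, TMM-scaled CPM were 3838 to 4944 and 4955 to 6791, and the share of protein-coding counts was 0.618% to 0.748% and 0.477% to 0.707%. The direction of the summed level thus turned with the scale, and the shares of protein-coding counts overlapped. As a share of the summed TPM of the 34 genes, 10 genes had all LKO mice above all WT mice, 16 had them below and 8 overlapped. No like count over all genes was made, as these shares are of the 34 genes only. On the TMM scale 17 of the 34 genes did not overlap, 50.0% against 54.0% of all genes tested. *Hsd17b10* went from 3.73% ± 0.334 of the sum in WT to 8.66% ± 1.05 in LKO mice (SD, n = 3), *Eci2* from 4.1% ± 0.402 to 6.95% ± 0.477 and *Etfdh* from 2.51% ± 0.0824 to 4.67% ± 0.485. *Acaa2*, with the highest share, went from 19.3% ± 0.276 to 14.3% ± 2.57. *Acsm1* went from 4.31% ± 0.635 to 1.53% ± 0.131 and *Slc25a20* from 2.88% ± 0.304 to 1.03% ± 0.192, while *Cpt1a* overlapped at 2.13% ± 0.511 and 1.99% ± 0.482. A share can move because other members of the sum moved.

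Ratios between partner genes in the same mouse were computed from TPM, for pairs chosen with earlier results known and therefore without a test. The ratio of *Hadhb* to *Hadha* was 1.02, 0.833 and 1.10 in WT and 1.82, 2.07 and 1.64 in LKO mice. That of *Etfa* to *Etfb* was 0.685, 0.815 and 0.922 in WT and 1.10, 1.64 and 1.61 in LKO mice. That of *Etfdh* to *Etfb* was 0.566, 0.562 and 0.598 in WT and 1.27, 1.49 and 1.21 in LKO mice. In these pairs every LKO mouse was above every WT mouse, and the means went from 0.986 ± 0.138 to 1.84 ± 0.218, from 0.807 ± 0.119 to 1.45 ± 0.306 and from 0.575 ± 0.0196 to 1.32 ± 0.150 (SD, n = 3). The ratio of *Cpt1a* to the translocase gene *Slc25a20* was 0.492, 0.794 and 0.991 in WT and 1.49, 2.02 and 2.39 in LKO mice, again without overlap. For *Cpt1a* over *Cpt2* it was 1.27, 1.43 and 1.92 in WT and 1.70, 1.80 and 2.26 in LKO mice, and for *Pcca* over *Pccb* 0.621, 0.840 and 0.738 in WT and 0.632, 0.488 and 0.655 in LKO mice. The last 2 ratios overlapped between the genotypes. *Etfb* is shorter than both its partners, and with gene length offsets the log2 fold changes were −0.18 for *Etfb*, 0.95 for *Etfa* and 1.49 for *Etfdh*.

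**Figure D2:**
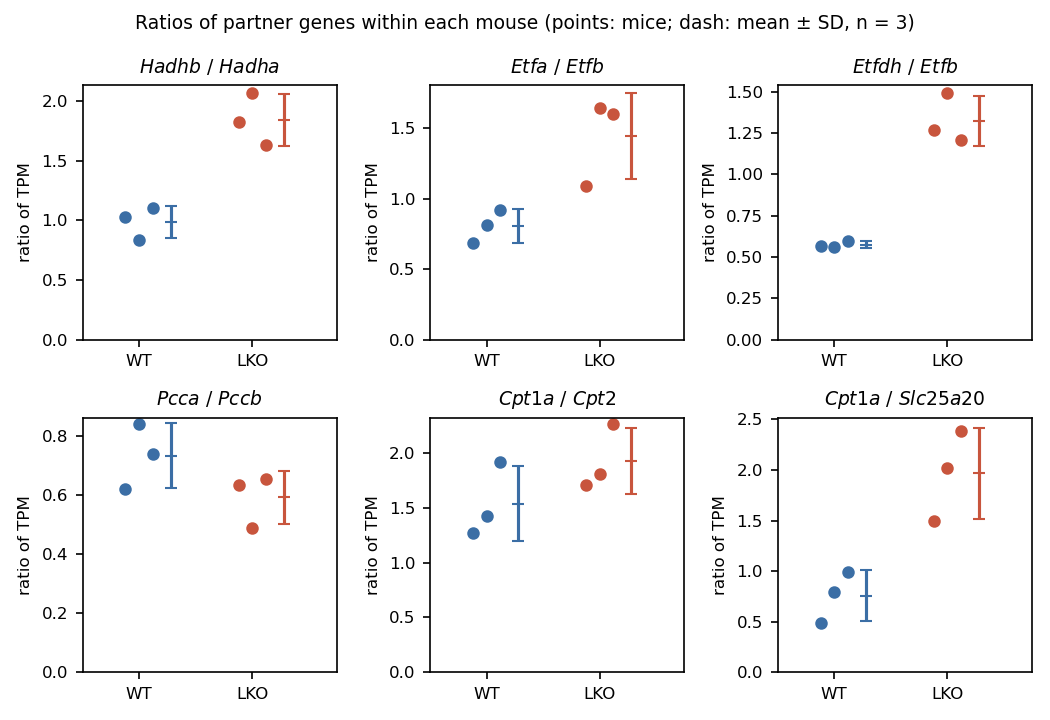
Ratio of TPM of 2 partner genes within each mouse (y axis, from 0) for 3 WT and 3 LKO mice, with points for mice and a dash with bars for the mean ± SD. The LKO points lie above all WT points for *Hadhb* over *Hadha*, *Etfa* over *Etfb*, *Etfdh* over *Etfb* and *Cpt1a* over *Slc25a20*, and the genotypes overlap for *Pcca* over *Pccb* and *Cpt1a* over *Cpt2*.

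The mice of a genotype differed in the same direction over most of the genes. On the TMM scale WT mouse 2 was the lowest WT mouse in 28 of the 34 genes and LKO mouse 3 the lowest LKO mouse in 27, whereas WT mouse 1 was the highest in 22. LKO mouse 3 was also the mouse with *Pak4* inside the WT range. Without LKO mouse 3, 14 of the 34 genes were called higher and 4 lower (of all genes tested 39.2% were called, 18.9% higher and 20.3% lower). Without WT mouse 2 they were 9 and 4 (30.7%, 15.0% and 15.7%).

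As the level of all genes also moved with the scaling, the values were set against the median of all genes tested, which was −0.04 after TMM, −0.90 with total counts, −0.79 in log2(TPM + 1) and −1.34 in log2(TPM + 0.1). The median of the 34 genes lay 0.28 above that of all genes after TMM, 0.29 above with total counts, 0.07 above in log2(TPM + 0.1), and differed from it by −0.40 in log2(TPM + 1). Of the 34 genes, 21 lay above the median of all genes after TMM and with total counts, 18 in log2(TPM + 0.1) and 10 in log2(TPM + 1). Where the 34 genes lay relative to all genes thus depended on the scale and, in TPM, on the amount added before the log. With gene length offsets the median of the 34 genes lay 0.32 above that of all genes, with 14 genes higher and 4 lower (38.7% of all genes tested were called, 20.0% higher and 18.7% lower). Across the 34 genes, shorter genes tended to have the higher fold changes (Pearson's r of the log2 fold change with log2 relative length −0.42, Spearman's ρ −0.34; −0.17 and −0.18 over all genes tested), a description over genes that share the same 6 libraries.

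**Figure D3:**
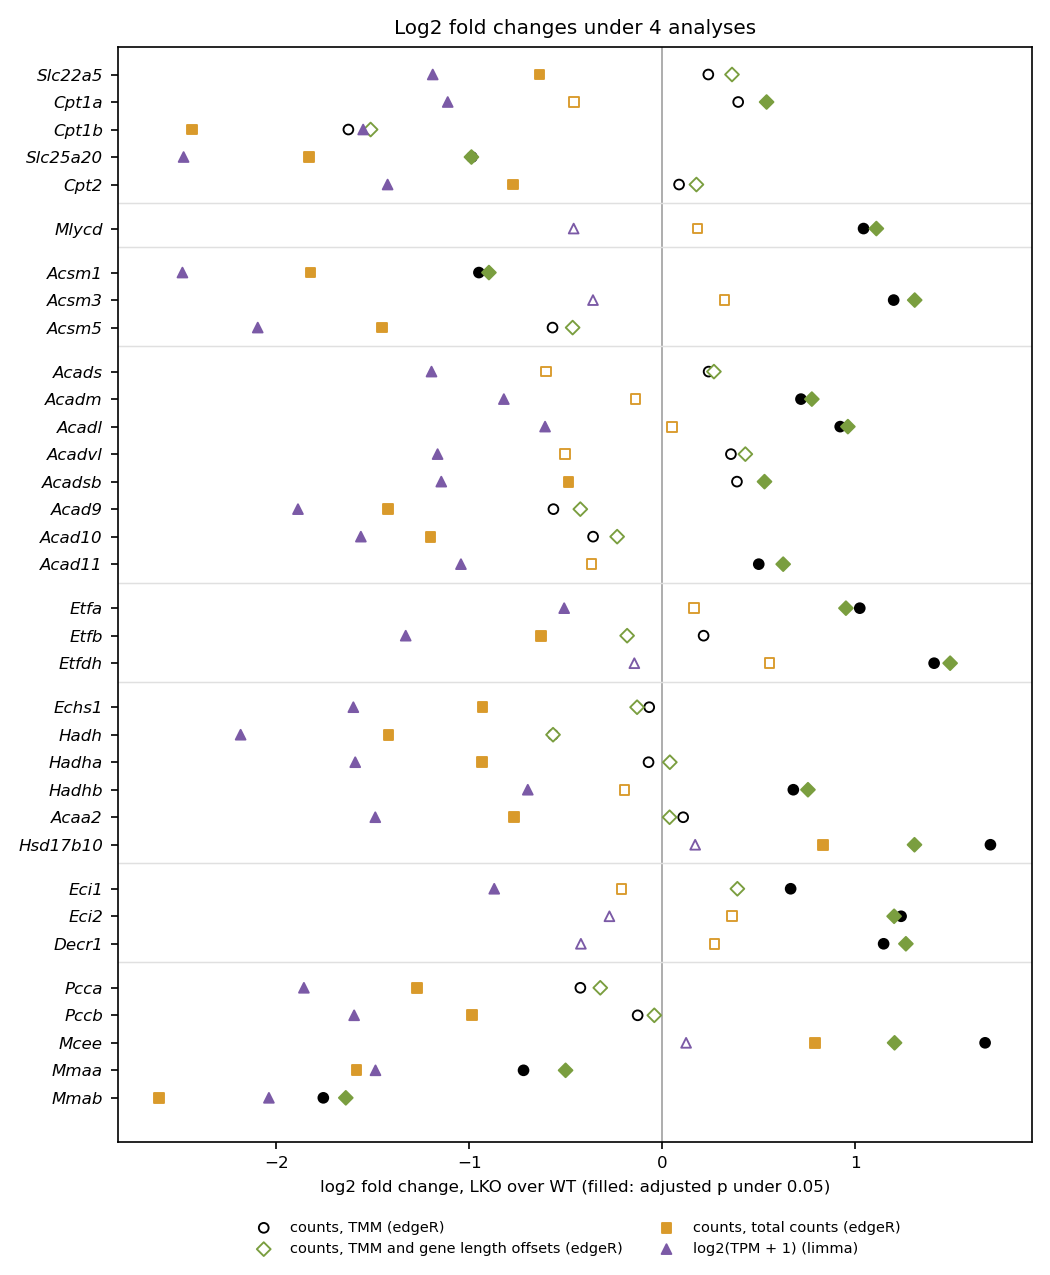
Log2 fold change of LKO over WT (x axis) of the 34 genes under 4 analyses, 3 of them edgeR on counts and 1 limma on log2(TPM + 1), with filled symbols for an adjusted p under 0.05. Counts scaled by TMM give 13 genes higher without and 14 with gene length offsets, total counts shift the points to the left with 2 genes higher and 18 lower, and limma on log2(TPM + 1) gives 27 lower.

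Of the 34 genes, 16 are textbook targets of PPARα, among them *Cpt1a*, *Cpt2*, *Slc25a20*, *Acadm*, *Acadl*, *Hadha*, *Hadhb* and *Acaa2*. 7 of these rose, 1 fell and 8 were not called on the TMM scale, with a median log2 fold change of 0.38, whereas in log2(TPM + 1) all 16 had negative values. Of the other 18 genes, 6 rose, 3 fell and 9 were not called, with a median of −0.10. In both lists 50.0% were called, against 40.1% of all genes tested. The genotypes did not overlap for 5 of the 16 and for 12 of the other 18 genes, against 54.0% of all genes tested. *Ppara* itself had 157, 181 and 288 CPM in WT and 98.2, 105 and 83.5 CPM in LKO mice. It fell, with all LKO mice below the WT mice and a log2 fold change of −1.12 ± 0.24 (adjusted p = 0.00685), and was called lower under each of 19 alternatives.

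Outside the 34 genes, 35 further genes of the pathway were listed, of which 33 were in the table and 32 were tested; 8 were higher and 10 lower in LKO mice, and their median was 0.14, where 19.6% of all genes tested were higher and 20.5% lower, with a median of −0.04. With total counts 3 were higher and 18 lower (6.26% and 51.4% of all genes tested), and with limma in log2(TPM + 1) 2 and 23 (2.43% and 71.5%). *Bbox1* and *Etfrf1* were called higher, and *Acaca*, *Acacb*, *Mtrr*, *Ivd* and *D2hgdh* lower, under each of 19 alternatives. *Acaca* and *Acacb*, the carboxylases that make malonyl-CoA, both fell. *Acaca* had 318, 207 and 306 CPM in WT and 77.7, 71.4 and 43.9 CPM in LKO mice, and *Acacb* had 96.1, 48.7 and 67.4 CPM in WT and 18.8, 18.9 and 28.7 CPM in LKO mice. Neither overlapped, with log2 fold changes of −2.11 ± 0.27 (adjusted p = 0.000690) and −1.68 ± 0.28 (adjusted p = 0.00217). The decarboxylase gene *Mlycd* rose on the TMM scale, but was not called with total counts (0.18) or in log2(TPM + 1) (−0.46). The TPM ratio of *Mlycd* to *Acacb* was 1.27, 1.76 and 1.93 in WT and 11.1, 13.4 and 8.68 in LKO mice, without overlap, and its mean went from 1.65 ± 0.340 to 11.0 ± 2.35 (SD, n = 3).

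Among 8 genes of carnitine synthesis and of other carnitine carriers and transferases, 3 rose and 1 fell (50.0%, against 40.1% of all genes tested). *Bbox1*, which takes the last step of carnitine synthesis, had 132, 118 and 155 CPM in WT and 489, 613 and 446 CPM in LKO mice and rose without overlap by 1.94 ± 0.20 (adjusted p = 0.000362). *Crot*, the peroxisomal carnitine octanoyltransferase, had 511, 554 and 434 CPM in WT and 1980, 1547 and 733 CPM in LKO mice, with LKO mouse 3 lowest of the LKO mice but above WT, and rose by 1.51 ± 0.34 (adjusted p = 0.00929). With total counts *Crot* was at 0.64 and in log2(TPM + 1) at −0.14, not called in either. *Slc25a29*, a mitochondrial carrier of basic amino acids, had 0.282, 0.336 and 0.378 CPM in WT and 0.545, 0.832 and 1.38 CPM in LKO mice, without overlap. Its log2 fold change was 1.47 ± 0.43 (adjusted p = 0.0247). The gene that fell was *Crat*, for carnitine acetyltransferase, with a log2 fold change of −0.65 ± 0.22 (adjusted p = 0.0488). *Slc25a29* was not called with total counts, on the TPM scales or without WT mouse 1, 2 or 3 or LKO mouse 3 (for these mice adjusted p = 0.0559 to 0.0812), nor *Crat* without WT mouse 1 or 3 or LKO mouse 2 or 3 (adjusted p = 0.0973 to 0.201). *Crat* was also not called with DESeq2 size factors, upper-quartile scaling, protein-coding totals, no filter or gene length offsets (−0.52, adjusted p = 0.104), and was called under 9 of 19 alternatives. *Tmlhe*, the first enzyme of carnitine synthesis, was not analysed here.

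Beside ETF, *Etfrf1*, which encodes a regulator of ETF, had 37.2, 30.0 and 37.2 CPM in WT and 164, 154 and 148 CPM in LKO mice. *Etfbkmt*, for the methyltransferase of ETF β, had 79.9, 65.2 and 57.8 CPM in WT and 121, 173 and 288 CPM in LKO mice. Both were above WT in every LKO mouse, with log2 fold changes of 2.16 ± 0.15 (adjusted p = 0.000212) and 1.52 ± 0.30 (adjusted p = 0.00509). With total counts *Etfbkmt* was at 0.65 and in log2(TPM + 1) at −0.05, not called in either. *Rfk* and *Flad1*, the enzymes that make FMN and FAD, fell by 0.51 and 0.58 (adjusted p = 0.0226 and 0.0140). *Rfk* was not called without WT mouse 1 or 3 or LKO mouse 1 or 2 (adjusted p = 0.0559 to 0.106), nor *Flad1* without WT mouse 1 or 3 (adjusted p = 0.0642 and 0.0673). With the replicate block *Rfk* was not called, nor was *Flad1* with the block and gene length offsets together. Of 7 other dehydrogenases that pass electrons to ETF, none rose and 3 fell, *Ivd*, *Sardh* and *D2hgdh*, with log2 fold changes of −0.92 to −0.86. Thus 42.9% were called, near the 40.1% of all genes tested. *Sardh* was not called without WT mouse 1 or 3 or LKO mouse 2 or 3 (adjusted p = 0.0562 to 0.0964), nor with gene length offsets (−0.74, adjusted p = 0.0666) or these with the replicate block.

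Of 6 genes for methylmalonyl-CoA mutase and cobalamin handling, 2 rose and 1 fell (50.0% called, against 40.1% of all genes tested). The mutase gene *Mmut* had 159, 131 and 169 CPM in WT and 365, 419 and 338 CPM in LKO mice, and *Lmbrd1*, for a protein of lysosomal cobalamin export, had 59.8, 65.5 and 67.9 CPM in WT and 112, 141 and 146 CPM in LKO mice. In both every LKO mouse was above WT, with log2 fold changes of 1.29 ± 0.17 (adjusted p = 0.000899) and 1.05 ± 0.16 (adjusted p = 0.00137). With total counts *Mmut* was at 0.42 and called higher (adjusted p = 0.0411), and *Lmbrd1* was at 0.17 and not called (adjusted p = 0.376). By limma on log2(TPM + 1) *Mmut* was at −0.25 and not called, and *Lmbrd1* was called lower, at −0.48 (adjusted p = 0.0341). *Mtrr*, for methionine synthase reductase, had 11.3, 8.56 and 8.48 CPM in WT and 4.04, 4.33 and 4.69 CPM in LKO mice and fell by 1.12 (adjusted p = 0.00241). Thus *Mmut* and *Mcee* were higher and *Mmab* and *Mmaa* lower in the same LKO mice. *Ech1*, an isomerase of dienoyl-CoA, had 251, 192 and 194 CPM in WT and 487, 653 and 303 CPM in LKO mice, without overlap. It rose by 1.18 ± 0.28 (adjusted p = 0.0109), as the 3 auxiliary enzymes did. With total counts *Ech1* was at 0.29 and in log2(TPM + 1) at −0.42, not called in either.

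**Figure D4:**
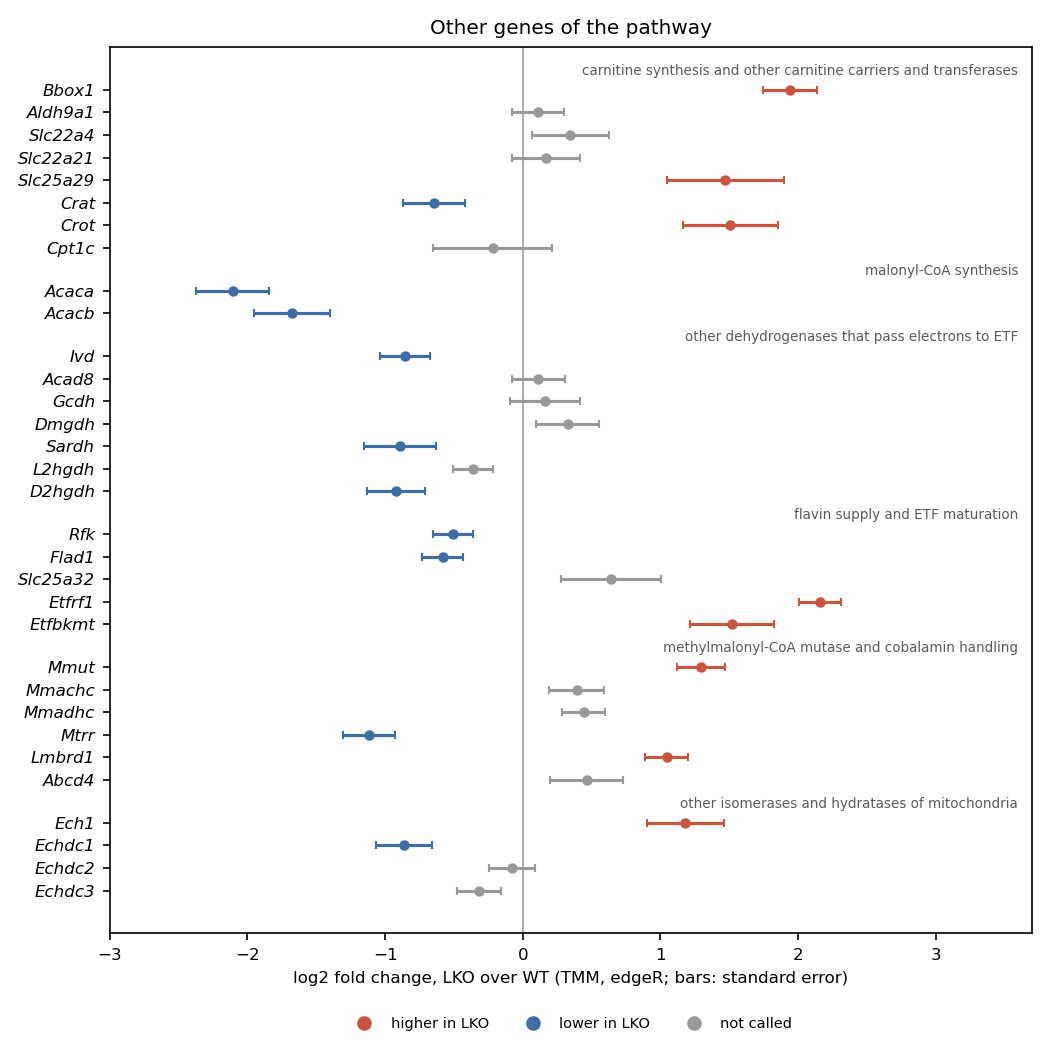
Log2 fold change of LKO over WT on the TMM scale (x axis) with standard errors as bars for the 32 further pathway genes tested, by role on the y axis, with colors for genes higher, lower and not called. *Acaca* and *Acacb* lie at −2.11 and −1.68, and *Etfrf1* and *Bbox1* lie farthest to the right at 2.16 and 1.94.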

How the data were processed

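Libraries were made by the authors from liver RNA of 3 WT and 3 LKO mice, 1 per mouse, and mice were assigned to a genotype by their labels. For each gene and mouse the authors deposited a raw read count, an FPKM (a count per kilobase of gene and per unit of sequenced fragments) and a TPM (the same, brought to 1 common sum per mouse). StringTie computed the deposited counts from coverage, and they are whole numbers. The submitters' processing notes name bcl2fastq 2.20.0, FastQC 0.11.7, HISAT2 2.1.0, Bowtie2 2.3.4.1, StringTie 2.1.3b and mm10. The labels name an mRNA library kit and the methods a total RNA kit, and whether strand was used in counting is not given in the sources used here.

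The 34 genes and the other lists were chosen with earlier results of these data known. A gene was tested when at most 1 of the 6 mice had a zero count, which kept 18636 genes. Counts were scaled by TMM and fitted with edgeR 4.0.16 under R 4.3.3, with a two-sided quasi-likelihood test of genotype, Benjamini-Hochberg adjustment over all genes tested and calls at an adjusted p under 0.05. The study's methods name exactTest of edgeR, which was an alternative. Other alternatives were DESeq2 1.42.0, its size factors, upper-quartile scaling, total counts, protein-coding totals, no filter, at least 10 counts in every mouse, offsets from a lowess trend (span 0.3) on relative gene length (count over FPKM), the replicate number as a block, both together, limma 3.58.1 on log2(TPM + 1) and log2(TPM + 0.1), and leaving out each mouse. Of these, only the quasi-likelihood test, exactTest and DESeq2 were tried on simulated counts. The other scalings, the gene length offsets, the block and limma on TPM were not.

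Named were all 34 genes, *Pak4*, *Ppara* and, of the other pathway genes, those called with a log2 fold change of at least 1 in size, both acetyl-CoA carboxylases, *Mmut*, *Bbox1* and *Tmlhe*. *Crat*, *Rfk*, *Flad1*, *Ivd*, *Sardh*, *D2hgdh* and the neighboring or overlapping genes were named after their values were seen. Coordinates and promoters came from RefSeq (GRCm38.p6). Overlaps between genes and the distances between the starts of neighboring genes came from the GENCODE annotation of that assembly. Total counts were 45934632 to 59576437 per mouse, and errors are SDs over 3 mice or standard errors of the fit. The paper names *Pak4* flox/flox littermates as controls, but the labels do not say which mice shared a litter or a day. The test set the genotype difference against the spread between these mice and took no account of litters.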

Additional observations from a re-analysis of the deposited data

How the results depend on the processing

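The numbers of members called moved most with total counts and with limma on the TPM scales, where scale and test changed together. After TMM, 13 members were called higher and 4 lower, with total counts 2 and 18, and with limma on log2(TPM + 1) and on log2(TPM + 0.1) 0 and 27 each, where the number of genes called was 13775 and 14002 in place of 7476. *Pak4* was called with total counts (−1.54), log2(TPM + 1) (−1.19) and log2(TPM + 0.1) (−2.14), and was between −1.08 and −0.49 with 1 mouse left out. Log2 fold changes that turned with total counts were *Slc22a5* −0.64, *Cpt1a* −0.46, *Cpt2* −0.77, *Acads* −0.60, *Acadm* −0.14, *Acadvl* −0.50, *Acadsb* −0.49, *Acad11* −0.37, *Etfb* −0.63, *Hadhb* −0.20, *Acaa2* −0.77 and *Eci1* −0.21. Those that turned on the log2(TPM + 1) and log2(TPM + 0.1) scales were, in this order, *Slc22a5* −1.19 and −1.30, *Cpt1a* −1.11 and −1.13, *Cpt2* −1.42 and −1.46, *Mlycd* −0.46 and −0.48, *Acsm3* −0.36 and −0.36, *Acads* −1.20 and −1.24, *Acadm* −0.82 and −0.82, *Acadl* −0.61 and −0.62, *Acadvl* −1.16 and −1.17, *Acadsb* −1.14 and −1.17, *Acad11* −1.04 and −1.05, *Etfa* −0.51 and −0.51, *Etfb* −1.33 and −1.34, *Etfdh* −0.14 and −0.15, *Hadhb* −0.70 and −0.70, *Acaa2* −1.49 and −1.49, *Eci1* −0.87 and −0.88, *Eci2* −0.27 and −0.27 and *Decr1* −0.42 and −0.42. Of the genes that turned with total counts, *Slc22a5*, *Cpt2*, *Acadsb*, *Etfb* and *Acaa2* were called lower. Of those that turned on the TPM scales, all but *Mlycd*, *Acsm3*, *Etfdh*, *Eci2* and *Decr1* were called lower by limma. Upper-quartile scaling turned *Echs1* 0.019 and *Hadha* 0.014, and gene length offsets *Etfb* −0.18 and *Hadha* 0.040. With 1 mouse left out, the ranges of the values that turned were *Acads* −0.034 to 0.46, *Echs1* −0.19 to 0.059, *Hadha* −0.21 to 0.076 and *Acaa2* −0.078 to 0.36, and 9 to 14 members were called higher and 4 to 6 lower. Of the 18636 genes tested, 2796 to 3517 were then higher and 2855 to 3792 lower. The cause of these changes was not tested. With exactTest 13 members were higher and 5 lower (3877 and 4154 of the 18636 genes tested), and with DESeq2 14 and 5 (3900 and 3943). Without a filter they were 10 and 4 (3410 and 3942 of 25982 genes).

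The deviations of same-numbered mice from their group means had correlations of 0.0002, −0.039 and −0.056 over all genes tested. Those of other-numbered mice were −0.020 to 0.056. These values show no pairing by replicate number, but they cannot tell which mice shared a litter or a day. With the replicate number as a block, 10 members were higher and 5 lower (3129 and 3302 of the 18636 genes tested). With the block and gene length offsets together they were 11 and 4 (3214 and 3017 of the genes tested). In that fit *Etfb* −0.19, *Hadha* 0.049 and *Acaa2* −0.0024 turned and *Mmaa* was no longer called (−0.51). The lowest count of a member was 21, for *Cpt1b* in LKO mouse 2, and with 3 mice per genotype the spread between mice sets the precision.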
